A study of Mus musculus with 3 samples.

Results

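Mitochondrially encoded RNAs are the transcripts of the small circular genome inside mitochondria, and were taken as every gene whose symbol starts with mt-. They numbered 37 of 55536 annotated mouse genes: 13 mRNAs, 2 rRNAs and 22 tRNAs. They were measured by total RNA-seq in the cytosolic fraction of BMDM (bone marrow-derived macrophages), primary cells of the C57BL/6J strain whose age and sex were not collected. All 3 libraries belong to 1 group. Its cells were first exposed to Lipid A, the part of bacterial endotoxin that activates the receptor TLR4, at 100 ng/ml for 12 hours. They were then kept without it for 12 hours and given 100 ng/ml again for the last 50 minutes, and rRNA was depleted before sequencing. No untreated group was analysed here, so the values below are levels and their spread over replicates and carry no response to Lipid A. The libraries are labelled as biological replicates 1, 2 and 3 of 1 donor entry, with nothing on separate animals, so the p-values measure only the spread between these samples.

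The libraries held 47972062, 54409436 and 53491957 expected counts (estimated reads) in replicates 1, 2 and 3. All 15 macrophage markers reached 1 TPM (a level per length, scaled to the same total in every library) in every library, led by Lyz2 (3417 ± 340 TPM, SD, n = 3), Ctss (1369 ± 337) and C1qb (968 ± 161), and with Itgam lowest (38.0 ± 7.83). None of the T and NK cell, B cell, erythroid or fibroblast markers did, and their summed levels lay between 0.0100 and 0.340 TPM per list and library. Of 6 neutrophil markers, S100a8 and S100a9 reached 1 TPM, the list summed to 7.90 to 10.4 TPM, and Ly6g was at 0.

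The mitochondrial genome is transcribed from both strands into long RNAs, which are cut into mRNAs, rRNAs and tRNAs, largely at the tRNAs that stand between the other genes. Its mRNAs encode core subunits of the proton-pumping complexes I, III and IV of the respiratory chain and of the ATP synthase, complex V, and its rRNAs and tRNAs translate them inside the organelle. All other subunits, and the whole of complex II, are encoded in the nucleus. Stretches of mitochondrial DNA have also been copied into nuclear chromosomes during evolution, and reads from a recent copy and from its source can be the same.

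The sequences that the results turn on are given first, from the GENCODE M21 transcripts (mm10), 5′ to 3′. The closest nuclear copies lay side by side on the minus strand of chromosome 1, at chr1:24611535-24616197. Over the aligned length they differed from the members by at most 1 base. In mt-Co1 (chrM:6390-6423, plus strand) and its copy Gm29216 (chr1:24616155-24616188), and in mt-Nd3 (chrM:9459-9491, plus strand) and its copy Gm28438 (chr1:24613087-24613119), the capital marks the only base that differs over the aligned length.
mt-Co1: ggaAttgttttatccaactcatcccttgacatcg
Gm29216: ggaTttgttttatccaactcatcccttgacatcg
mt-Nd3: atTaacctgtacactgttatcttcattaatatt
Gm28438: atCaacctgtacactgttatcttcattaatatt
The mRNA of mt-Atp8 (chrM:7766-7969, plus strand) is shown because it is the shortest of the 13 and its level depended on length more than any other; the capitals mark the 43 bases that it shares with the start of mt-Atp6 in another reading frame.
mt-Atp8: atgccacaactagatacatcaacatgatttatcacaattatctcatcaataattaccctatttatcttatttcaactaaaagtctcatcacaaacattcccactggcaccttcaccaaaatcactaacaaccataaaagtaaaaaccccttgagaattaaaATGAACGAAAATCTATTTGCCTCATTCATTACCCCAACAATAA
The 4 tRNAs with the most reads are all coded on the minus strand, and the capitals mark the anticodon: mt-Tp for proline (chrM:15356-15422), mt-Ts1 for serine (chrM:6870-6938), mt-Te for glutamate (chrM:14071-14139) and mt-Tc for cysteine (chrM:5192-5257).
mt-Tp: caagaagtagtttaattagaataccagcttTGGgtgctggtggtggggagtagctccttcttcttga
mt-Ts1: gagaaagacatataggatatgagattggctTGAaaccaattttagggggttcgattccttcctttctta
mt-Te: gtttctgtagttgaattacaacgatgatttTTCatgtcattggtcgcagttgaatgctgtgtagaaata
mt-Tc: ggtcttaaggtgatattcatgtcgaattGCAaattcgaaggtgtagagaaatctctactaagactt

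In the deposited gene table the 13 mRNAs had a median level of 314, 146 and 75.3 TPM in replicates 1, 2 and 3, or 178 ± 123 TPM (SD, n = 3), beside 9.10 ± 1.61 TPM for the median nuclear protein-coding gene at 1 TPM or more in every library. The 2 rRNAs were far lower, at 6.45 ± 4.48 TPM for mt-Rnr1, the small ribosomal RNA, and 3.16 ± 2.63 TPM for mt-Rnr2, the large one, in libraries from which rRNA had been depleted. None of the 22 tRNAs had a read in that table, where their effective length, the number of places a fragment can start, was 0.

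Complex I, the NADH dehydrogenase, has 7 mitochondrially encoded subunits, and their mRNAs lay between 57.7 and 231 TPM. The highest by this measure was mt-Nd6, a membrane subunit and the only mRNA on the minus strand (chrM:13552-14070), with 382, 218 and 93.4 TPM in replicates 1, 2 and 3; with copies summed mt-Nd4l was higher, and per annotated kilobase mt-Nd1, mt-Nd5 and mt-Nd4 were on average. Next came mt-Nd1, which helps form the ubiquinone pocket, with 377, 187 and 81.1 TPM. The proton-pump subunit mt-Nd5 had 322, 154 and 82.2 TPM. Its homologue mt-Nd4 had 314, 145 and 75.3 TPM. In each of these 4 genes replicate 1 was highest and replicate 3 lowest. The remaining 3 were mt-Nd4l (159 ± 102 TPM), mt-Nd2 (90.4 ± 61.9 TPM) and mt-Nd3 (57.7 ± 32.0 TPM).

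Complex III has 1 mitochondrially encoded subunit, cytochrome b, whose mRNA mt-Cytb stood at 350, 162 and 89.4 TPM in replicates 1, 2 and 3. In complex IV, the cytochrome c oxidase, mt-Co1, the subunit that holds the site of oxygen reduction, had 1541, 731 and 419 TPM. The other two core subunits were listed at a small fraction of that: mt-Co2, which takes up electrons from cytochrome c, at 5.98, 5.18 and 0 TPM, and mt-Co3 at 39.5, 57.8 and 9.66 TPM. The 3 mRNAs thus averaged 897, 3.72 and 35.6 TPM, although their proteins share 1 complex. In complex V, mt-Atp6, the proton-channel subunit of the ATP synthase, had 68.1, 32.5 and 69.8 TPM. Its neighbour mt-Atp8, a small membrane subunit, had 2148, 936 and 457 TPM, the highest listed level of all members.

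**Figure D1:**
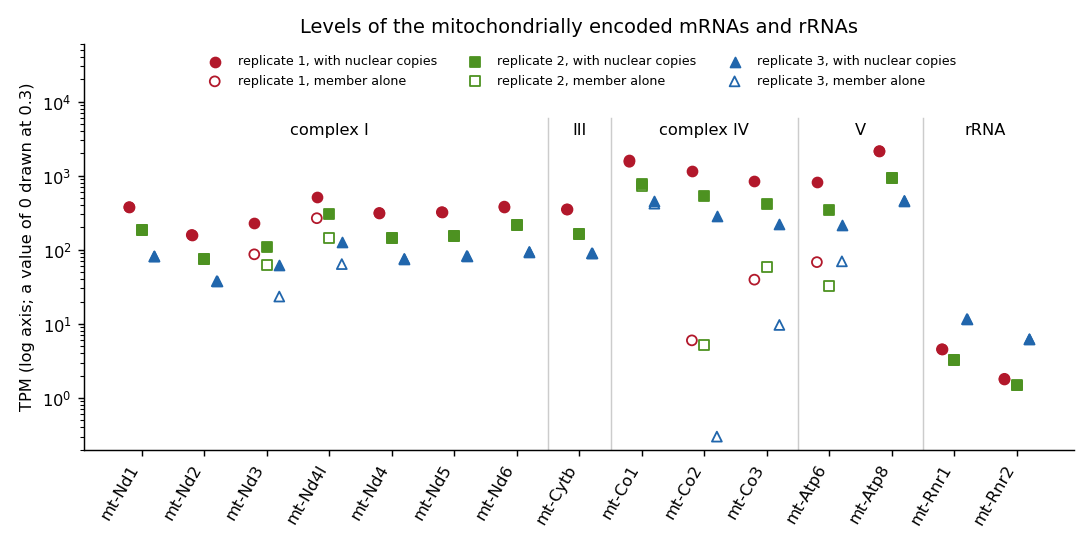
TPM (log axis) of each mitochondrially encoded mRNA and rRNA, grouped by complex, 1 marker per replicate; open markers are the deposited values of the member and filled markers include the reads assigned to its nuclear copies. The open markers of mt-Co2, mt-Co3 and mt-Atp6 lie far below the filled ones, and replicate 1 is highest for every filled mRNA but for neither rRNA.

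The low listed levels of mt-Co2, mt-Co3 and mt-Atp6 went with nuclear copies of these genes. By alignment of all GENCODE transcripts, 17 genes outside the mitochondrial genome matched a member at 90% identity or more over at least 100 bases, and together they matched 11 of the 13 mRNAs. The 7 on chromosome 1 are annotated as unprocessed pseudogenes and span 4663 bases. The copies of mt-Co2 (Gm28661, 681 bases), mt-Atp6 (Gm10925, 678 bases), mt-Co3 (Gm28437, 783 bases), mt-Nd4l (Gm10222, 294 bases) and mt-Nd4 (Gm28439, 876 bases) had no mismatch. The copy of mt-Co1 had 1 substitution, A1066T, over 483 bases, and that of mt-Nd3 had T3C over 345 bases, both counted from 1 at the 5′ end of the member. The 10 copies elsewhere had at most 18.5 expected counts on average.

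Of the reads given to mt-Co2 and its copy together, most stood under the copy in the gene table. mt-Co2 was given 197, 246 and 0 expected counts in replicates 1, 2 and 3, and Gm28661 was given 38213, 25002 and 9775, so that 0.513%, 0.975% and 0% of the reads of the pair were on the member. For mt-Co3 the share on the member was 4.62%, 14.1% and 4.32%. For mt-Atp6 it was 8.29%, 9.42% and 32.7%, which left this member alone among the mRNAs highest in replicate 3. mt-Nd4l and Gm10222 were split nearly evenly, with 51.3%, 48.5% and 50.5% on the member. mt-Nd3 had 37.5%, 57.1% and 37.7% of its pair. By contrast, mt-Co1, whose copy covers less than its whole length, kept 93.6%, 93.3% and 91.0%, and mt-Nd4 kept 100.0% in each library.

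The deposited tables carry a second estimate of each count, the posterior mean, with its SD. For mt-Co2 the posterior mean was 3899, 3961 and 1075 reads, far above its expected counts, and the SD was 1211, 1570 and 580 reads, the same 3 values as for Gm28661. For mt-Co3 the posterior mean was 13575, 10016 and 3685 reads, against 1582, 3334 and 394 expected counts. For mt-Co1 the SD was 161, 134 and 90.6 reads, a small part of its count. For the mRNAs mt-Nd1, mt-Nd5, mt-Nd6, mt-Cytb and mt-Atp8, which have no copy on chromosome 1, the SD was 0. The second transcript table, estimated from the same libraries in another layout, divided the same reads otherwise. It put 92.5%, 92.5% and 99.8% of the mt-Atp6 pair on the member and 100.0% of the mt-Nd4l pair, but still only 4.99%, 6.07% and 18.8% of the mt-Co2 pair. The sum of member and copies was close in both tables, at 1.04 to 1.28 times the gene table's value over the 13 mRNAs and 3 libraries (median 1.08). Whether any of these reads came from chromosome 1 was not tested, since the tables hold no read positions.

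**Figure D2:**
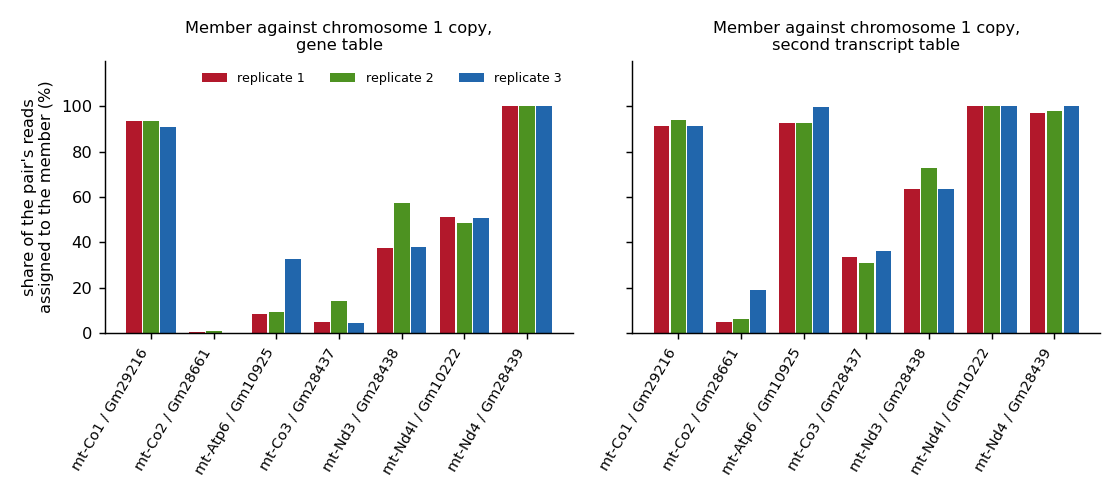
Share of the reads of each member and its chromosome 1 copy that was assigned to the member, in percent, for replicates 1, 2 and 3, in the gene table (left) and the second transcript table (right). mt-Atp6 moves between 8.29% and 92.5% in replicate 1 from one table to the other, while mt-Co1 and mt-Nd4 stay above 90% in both.

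With the reads of the copies added to each member, the levels of the complex IV subunits came closer together, with mt-Co1 still highest in every library. mt-Co1 had 1648, 784 and 460 TPM, mt-Co2 had 1164, 531 and 289 TPM, and mt-Co3 had 854, 409 and 224 TPM in replicates 1, 2 and 3. Of complex V, mt-Atp6 came to 821, 345 and 214 TPM. In complex I, mt-Nd4l came to 316 ± 197 TPM and mt-Nd3 to 135 ± 87.4 TPM. The 13 mRNAs then lay between 90.4 and 1180 TPM, with a median of 231 ± 145 TPM (SD, n = 3).

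The first place of mt-Atp8 rested on its effective length. Of its 204 bases, only 22.4, 24.3 and 32.3 counted as effective in replicates 1, 2 and 3, because fragments that fit inside so short an mRNA are few. In the second table they were 47.2, 54.1 and 56.1, and mt-Atp8 had 569, 158 and 77.7 TPM, behind mt-Co1. Per annotated kilobase, with CPM (counts scaled to edgeR TMM library sizes), mt-Atp8 held place 9 of 13 with copies summed and place 6 without.

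Per annotated kilobase and with copies summed, the order was led by the complex IV and V mRNAs. mt-Co1 averaged 1272 ± 731 CPM per kb, mt-Co2 693 ± 421, mt-Co3 551 ± 322 and mt-Atp6 478 ± 293 (SD, n = 3), and this order was the same in all 3 libraries. mt-Nd1 followed at 257 ± 163, below mt-Atp6 by 0.96 ± 0.27 on the log2 scale within libraries. mt-Nd5 (252 ± 151), mt-Cytb (249 ± 151), mt-Nd4 (230 ± 144), mt-Atp8 (214 ± 119) and mt-Nd6 (210 ± 120) came next. Among mt-Nd1, mt-Nd5 and mt-Cytb, and among mt-Nd4, mt-Atp8 and mt-Nd6, neighbours changed places between libraries, so that their order was within the spread. In replicate 3, mt-Nd1 (87.39 CPM per kb) also lay below mt-Nd4 (87.53) and mt-Atp8 (98.35). mt-Nd4l (150 ± 80.2), mt-Nd2 (110 ± 68.0) and mt-Nd3 (81.1 ± 44.3) were last in every library.

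The wide SDs of the 13 mRNAs with copies summed came from a difference between libraries that they all shared. With copies summed, the mRNAs together held 7711 CPM in replicate 1, 4831 CPM in replicate 2 and 1986 CPM in replicate 3. Each of the 13 was highest in replicate 1 and lowest in replicate 3. The ratio of replicate 1 to replicate 3 was 3.39 to 4.71 (median 3.98) and that of replicate 1 to replicate 2 was 1.28 to 1.79 (median 1.59). Over all tested genes the median ratio of replicate 1 to replicate 3 was 1.01, a value that scaling to TMM library sizes largely sets. The 6 mRNAs with no copy on chromosome 1, whose counts need no summing, gave ratios of 3.41 to 4.71, and the second table gave 3.48 to 4.84 for the 13.

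As deposited, without copies, 15 members passed the mean count of 10 needed for a test of whether the replicates differed beyond counting error (chi-square against TMM library sizes, Benjamini-Hochberg over 13827 genes). All 15 did at an adjusted p under 0.05, the highest being 1.13e-47 for mt-Co2, but so did 70.0% of all tested genes, so the call alone says little of the members. With the deposited posterior variance added to the counting error, 12 of 15 were called, without mt-Co2, mt-Atp6 and mt-Co3, against 67.9% of all tested genes. A spread of at least 2-fold between the highest and the lowest replicate, in CPM + 0.5, was found in 14 of the 15, against 6.86% of all tested genes; mt-Atp6 was the exception at 1.61-fold. Replicate 1 was highest and replicate 3 lowest in 10 members, all of them mRNAs, against 20.1% of all tested genes, and with copies summed in all 13 mRNAs. Replicate 3 was highest in 3 members, mt-Atp6 and the rRNAs, against 34.2% of all tested genes. Without replicate 3, none of the 15 spread 2-fold, and 2.79% of all tested genes did. Without replicate 1 or without replicate 2 the number was 14, against 2.42% and 4.89% of all tested genes.

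The biological coefficient of variation from edgeR put the same spread on a common scale. It was 0.378 to 0.466 for the 6 mRNAs with no copy on chromosome 1, against a median of 0.164 over all tested genes. It was 1.30 for mt-Co2 and 0.584 for mt-Co3, whose division from their copies also changed between libraries.

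**Figure D3:**
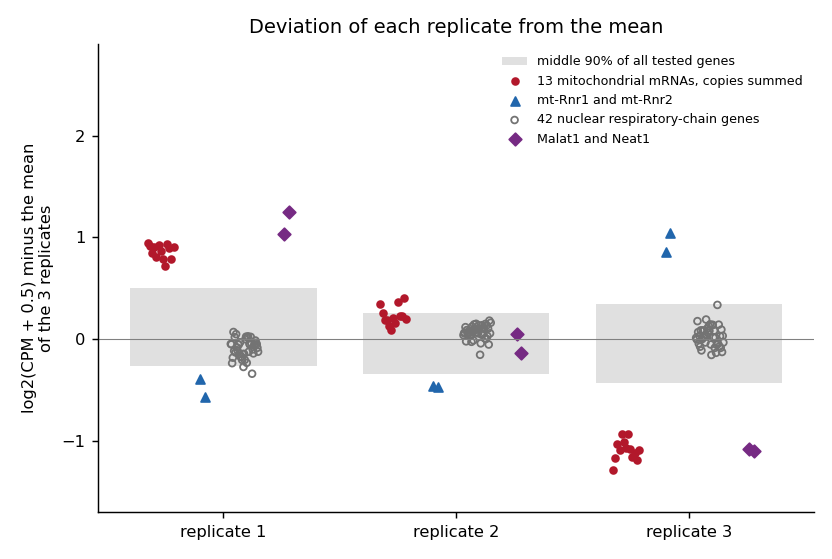
Deviation of log2(CPM + 0.5) from the mean of the 3 replicates, 1 marker per gene, for the 13 mRNAs with copies summed, the 2 rRNAs, 42 nuclear genes of the respiratory chain, and Malat1 and Neat1; the grey boxes hold the middle 90% of all tested genes. The mRNAs lie above the box in replicate 1 and below it in replicate 3, while the rRNAs lie above it in replicate 3.

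Within a library, the proportions of the 13 mRNAs to each other hardly moved. With copies summed, mt-Co1 made up 40.2%, 40.4% and 42.4% of their counts in replicates 1, 2 and 3. mt-Co2 made up 9.94%, 9.62% and 9.59%, mt-Co3 8.86%, 8.99% and 8.96%, and mt-Cytb 5.95%, 5.83% and 5.78%. The share of each mRNA changed by at most 1.27-fold between the highest and the lowest library, while their total changed 3.88-fold in CPM. The largest changes of share were those of mt-Nd1 (5.11%, 5.36% and 4.21%), mt-Nd4l (0.838%, 1.05% and 0.918%) and the minus-strand mt-Nd6 (2.10%, 2.56% and 2.05%). Of all expected counts, the 37 members took 0.580%, 0.356% and 0.140% in replicates 1, 2 and 3, and with their copies 0.807%, 0.483% and 0.193%. The 95% Wilson interval of the highest of these, which covers counting error only, was 0.804% to 0.809%.

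Other measures moved with this difference between libraries. Among 6 RNAs known to stay in the nucleus, Malat1 had 6066, 3077 and 1408 CPM in replicates 1, 2 and 3, and Neat1, the scaffold of paraspeckles, had 647, 247 and 127 CPM. Kcnq1ot1 had 49.6, 15.6 and 5.11 CPM and Airn 2.79, 1.40 and 0.955 CPM, and Meg3 and Tsix had no read; all 6 of the list are given. The 4 that were tested were thus all highest in replicate 1 and lowest in replicate 3 (background 20.1%), and all spread at least 2-fold (background 6.86%). The share of reads on phiX174, a spike-in added to sequencing runs, was 0.0785%, 0.0520% and 0.0251%. The mean fragment length, taken as the annotated minus the effective length of mt-Co1, was 221, 218 and 198 bases. The part of each of these in the spread of the mitochondrial mRNAs was not tested, and with 3 libraries of 1 group they cannot be told apart.

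The rRNAs went against the mRNAs. mt-Rnr1 had 237, 244 and 610 expected counts, or 4.73, 4.49 and 11.9 CPM, in replicates 1, 2 and 3. mt-Rnr2 had 175, 205 and 597 expected counts, or 3.49, 3.77 and 11.6 CPM. Both were highest in replicate 3, by 2.65-fold and 3.33-fold over their lowest library, where every mRNA with copies summed was lowest. As a percentage of the mRNA counts, the rRNAs came to 0.107%, 0.171% and 1.19%. In the second table they had more reads, 1.38 to 2.13 times the gene table's for mt-Rnr1 and 2.21 to 5.44 times for mt-Rnr2, and the percentage was 0.270%, 0.569% and 1.93%, a ratio in which the mRNA counts also change. There mt-Rnr1 had 6.50, 7.63 and 13.6 CPM and mt-Rnr2 13.1, 16.3 and 21.3 CPM, so that mt-Rnr2 no longer spread 2-fold. By TPM in that table mt-Rnr2 was highest in replicate 1, at 4.01, 2.70 and 3.60. In living cells the mitochondrial rRNAs are among the most abundant organelle transcripts, and how far rRNA depletion set these levels was not tested.

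The tRNAs could be seen only in the second table, and nearly all their reads were assigned to tRNAs coded on 1 strand. The 8 tRNAs on the minus strand had 288, 223 and 185 estimated reads together in replicates 1, 2 and 3. The 14 on the plus strand, which carries 12 of the 13 mRNAs, had 7, 11 and 14 reads together. All 8 of the minus strand had a read in each library, and 7 of the 14 had none in any. Highest was mt-Tp, with 165, 106 and 64 reads, in the order of the mRNAs. mt-Te, which lies next to mt-Nd6, had 47, 12 and 34 reads. mt-Ts1, which overlaps the end of mt-Co1 by 3 bases on the other strand, had 39, 57 and 54 reads, and mt-Tc had 14, 21 and 15. The mRNA on the minus strand, mt-Nd6, differed from the others in composition too, with 28.1% G and 5.97% C, where the other 12 had 5.88% to 16.1% G. The sources used here do not give the strand setting of the counting. Where strand was not used, reads from one strand and from its complement cannot be told apart. This holds for the tRNAs and for every mRNA over its whole length, mt-Nd6 and the 14 bases it shares with mt-Nd5 included.

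**Figure D4:**
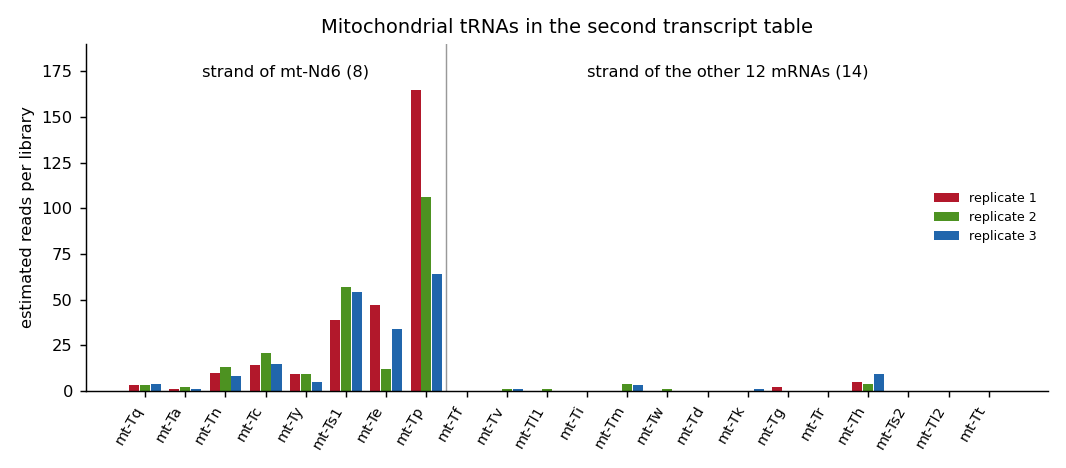
Estimated reads on each of the 22 mitochondrial tRNAs in the second transcript table, with 1 bar per replicate, the 8 on the strand of mt-Nd6 to the left and the 14 on the other strand to the right. mt-Tp stands highest at 165, 106 and 64 reads, and no tRNA on the right exceeds 9.

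The nuclear partners of these subunits spread less between libraries. Of 42 listed nuclear genes of complexes I to V, all 42 were tested, 38 differed between replicates beyond counting error (background 70.0%), none spread 2-fold (background 6.86%) and 1 was highest in replicate 1 and lowest in replicate 3 (background 20.1%). In CPM + 0.5 their highest replicate was 1.05 to 1.60 times the lowest, with a median of 1.16, and the ratio of replicate 1 to replicate 3 was 0.621 to 1.13. In complex I the nuclear mRNAs were led by Ndufb8 (76.5 ± 8.03 TPM) and Ndufs3 (33.5 ± 7.29), with the flavoprotein Ndufv1 lowest (11.8 ± 1.66). In complex III, Uqcrh (104 ± 10.1), Uqcrb (95.4 ± 11.0) and Uqcrq (86.5 ± 20.6) led and the haem protein Cyc1 was lowest (17.5 ± 2.13). In complex IV, Cox4i1 (196 ± 25.9), Cox8a (168 ± 24.3) and Cox5a (159 ± 25.7) led and Cox7b was lowest (32.1 ± 8.02). In complex V, the catalytic subunit Atp5b (242 ± 45.2), Atp5e (104 ± 28.4) and Atp5a1 (101 ± 9.09) led and Atp5g1 was lowest (26.3 ± 2.67). Complex II, which has no mitochondrially encoded subunit, was led by Sdhb (71.5 ± 4.38), Sdha (49.2 ± 10.3) and Sdhd (43.4 ± 3.66).

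In all 4 complexes with both kinds of subunit, the median of the mitochondrially encoded mRNAs stood above that of the nuclear ones in each library. Single genes did not all keep this order. In replicate 3, with copies summed, mt-Cytb (89.4 TPM) lay below Uqcrh (115) and mt-Nd2 (37.6) below Ndufb8 (82.5). There mt-Atp6 (214 TPM) also lay below Atp5b (285). In complex I the mitochondrial median, copies summed, was 322, 154 and 81.1 TPM in replicates 1, 2 and 3, against a nuclear median of 28.9, 22.1 and 28.3 TPM. In complex III the values were 350, 162 and 89.4 TPM for mt-Cytb, against 50.5, 45.1 and 59.8 TPM. In complex IV they were 1164, 531 and 289 TPM, against 135, 113 and 136 TPM. The gap on the log2(TPM + 1) scale was 2.55 ± 0.98 in complex I, 1.72 ± 1.10 in complex III, 2.13 ± 1.01 in complex IV and 3.31 ± 1.09 in complex V (SD, n = 3), narrowest in replicate 3 each time. The gap of complex V is an upper estimate, because it includes mt-Atp8 at its short effective length.

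**Figure D5:**
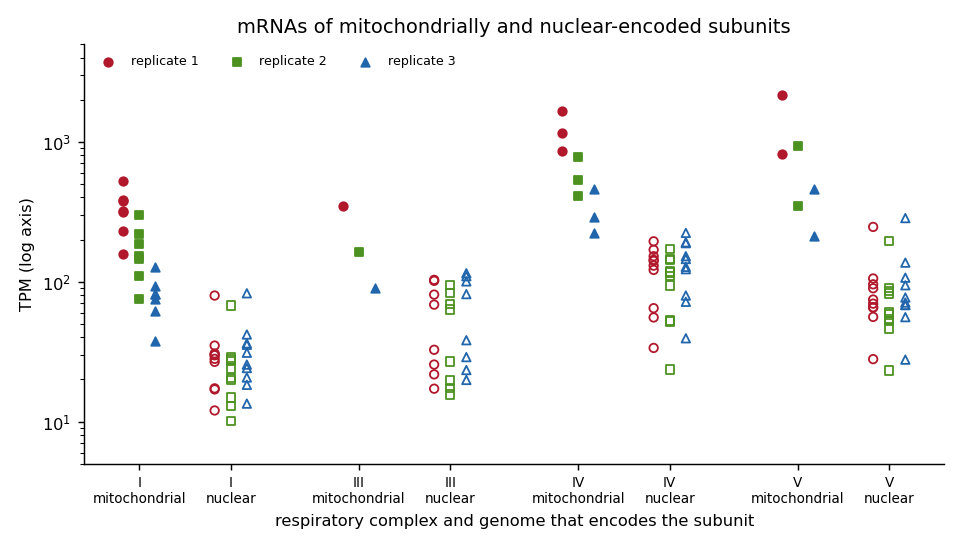
TPM (log axis) of the mitochondrially encoded mRNAs with copies summed (filled, left) and of the listed nuclear mRNAs (open, right) of complexes I, III, IV and V, 1 marker per gene and replicate. The filled markers spread more with the replicate than the open ones, with complex I medians of 322, 154 and 81.1 TPM against 28.9, 22.1 and 28.3 TPM.

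Differences within a library were compared for 12 pairs of genes on the log2(TPM + 1) scale with the exact two-sided sign-flip permutation test over the 3 replicates, which cannot give a p below 0.25. That value was reached by 11 pairs, which kept 1 direction in all 3 libraries; adjusted over the 12 pairs it was 0.273, so that none passed 0.05. mt-Co1 exceeded mt-Nd1 by 2.12 ± 0.21 and its nuclear partner Cox4i1 by 1.99 ± 1.04. mt-Nd4 exceeded Ndufv1 by 3.57 ± 1.11 and mt-Cytb exceeded Uqcrc1 by 2.38 ± 1.10. As deposited, mt-Co2 lay below Cox5a (-5.50 ± 1.79) and mt-Atp6 below Atp5a1 (-0.89 ± 0.48), but with copies summed both lay above, by 1.83 ± 1.20 and 1.96 ± 0.98. The same sum turned mt-Nd4l minus mt-Nd4, 2 reading frames of 1 mRNA that share 7 bases, to 0.84 ± 0.18 where it had been -0.15 ± 0.14 (exact p = 0.50 before the sum), and per annotated kilobase it was -0.57 ± 0.19. Some pairs of unequal length depended on the effective length. mt-Atp8 exceeded mt-Atp6 by 4.15 ± 1.27, and by 1.31 ± 0.19 with copies summed, but lay below it per annotated kilobase (-1.12 ± 0.09 on the log2(CPM per kb + 1) scale, copies summed). mt-Nd6 exceeded mt-Nd5, which faces it on the other strand, by 0.31 ± 0.17, but not per annotated kilobase (-0.26 ± 0.15). mt-Cytb was below mt-Nd6 (-0.21 ± 0.19), but above it per annotated kilobase (0.25 ± 0.18). mt-Rnr2 was below mt-Rnr1 (-0.86 ± 0.11) in the gene table and level with it in the second (0.023 ± 0.18).

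The genes that transcribe, process and degrade mitochondrial RNA are all nuclear. The list used for them also holds genes that copy mitochondrial DNA, among them Polg, Polg2 and Twnk. Of 43 listed symbols, 41 matched a gene and were tested, while no gene stood under the symbols Fastkd4 and Prorp. Replicate 1 was highest and replicate 3 lowest in 7 of the 41 (background 20.1%). Of these 41, 29 differed beyond counting error (background 70.0%) and none spread 2-fold in CPM + 0.5 (background 6.86%). Their median level was 3.57 ± 0.38 TPM and their ratio of replicate 1 to replicate 3, with nothing added, was 0.694 to 2.45 (median 1.06); the highest was that of Mterf1b, at 0.705, 0.528 and 0.287 CPM in replicates 1, 2 and 3, named after its values were seen. The RNA polymerase Polrmt had 8.98, 10.8 and 9.20 CPM in replicates 1, 2 and 3, and the transcription and packaging factor Tfam had 13.0, 12.3 and 12.6 CPM. Lrpprc, which holds mitochondrial mRNAs stable, had 44.5, 43.6 and 39.6 CPM, and Pnpt1, the exonuclease of the degradosome, 45.7, 41.7 and 54.1 CPM; these 4 were named for their roles, after their values were seen. By level the list was led by Slirp, the partner of Lrpprc (41.3 ± 13.6 TPM), Rexo2, an oligoribonuclease (24.5 ± 5.72), and Hsd17b10, a subunit of mitochondrial RNase P (15.8 ± 4.18), with Mterf2 lowest (0.113 ± 0.0379).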

How the data were processed

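Expected counts, their posterior mean and SD, effective lengths and TPM were read from the gene and transcript tables the authors deposited, in the layout RSEM writes, 1 library each; a second deposited transcript table in the layout kallisto writes gave estimated counts and TPM, summed per gene. The notes deposited with the files name mm10 and annotation M21; the sources used here give neither the quantifier and its version nor a strand setting. All per-sample columns were matched. Entries that are not Ensembl genes, 0.0251% to 0.0785% of counts, were left out. From these files, TMM library sizes and the coefficient of variation came from edgeR 4.0.16 (rounded expected counts, intercept only); replicates were compared with a chi-square on 2 degrees of freedom, tested on simulated data, with Benjamini-Hochberg adjustment over genes whose counts averaged at least 10. edgeR's quasi-likelihood test has no contrast with 1 group. Copies were found with blastn 2.17.0; a sum of member and copies was divided by the member's effective length. A count of 0 allows up to 0.0551 to 0.0625 CPM (3 counts, counting error only). DESeq2 1.42.0 size factors and the alternatives in the closing section were tried. Members and lists were chosen with earlier results of these data known. Every member with a mean count of 1 or more was named; of each list, the 3 highest and, from 8 measured genes, the lowest in TPM were named. The values of 1 listed gene and its pair are not reported here.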

Additional observations from a re-analysis of the deposited data

Results flagged for a closer look

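Of 22 mitochondrial tRNAs, 7 had more than 3 reads in each library of the second transcript table, above what a count of 0 allows, although the gene table lists all 22 at 0. The mean over 3 libraries was 112 reads for mt-Tp, 50.0 for mt-Ts1, 31.0 for mt-Te, 16.7 for mt-Tc, 10.3 for mt-Tn and 7.67 for mt-Ty, all on the minus strand, and 6.00 for mt-Th on the plus strand.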

How the results depend on the processing

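The limits are those of 3 libraries of 1 group: no contrast can be tested, and depth is not what limits the mRNAs, while the tRNAs rest on few reads. Of 15 members tested, 14 spread 2-fold (6.86% of all genes). The number was 14 to 15 under other scalings, pseudocounts, posterior mean counts or copies summed (4.24% to 13.2% of all genes). It was 0 to 14 when a replicate was left out (2.42% to 4.89%), 0 being the value without replicate 3. In the second table it was 14 of 20 tested (12.7% of all genes), with tRNAs entering the test. There mt-Atp6 and the tRNA mt-Tp spread 2-fold, and mt-Rnr2 and mt-Co2 did not. The number that differed beyond counting error was 15; it was 12 with the posterior variance added (67.9% of all genes), and 11 to 15 when a replicate was left out (49.4% to 53.6%). The number highest in replicate 1 was 10 (34.4% of all genes), 10 to 13 in the gene table under other settings (28.4% to 51.1%), and 15 of 20 in the second table (60.2%). The median TPM of the mRNAs was 577 ± 378 when TPM was rescaled to nuclear protein-coding genes, 89.7 ± 87.1 in the second table, and 111 to 230 when a replicate was left out. The share of counts was 0.248% to 0.468% when a replicate was left out. Of the 12 pair differences, mt-Nd4l minus mt-Nd4 reversed to 0.84 with copies summed and 0.80 in the second table, mt-Atp6 minus Atp5a1 to 1.96 and 1.89, mt-Co2 minus Cox5a to 1.83 with copies summed, and mt-Rnr2 minus mt-Rnr1 to 0.023 in the second table. Per annotated kilobase with copies summed, mt-Atp8 minus mt-Atp6 reversed to -1.12, mt-Nd6 minus mt-Nd5 to -0.26, mt-Cytb minus mt-Nd6 to 0.25, mt-Co2 minus Cox5a to 1.87 and mt-Atp6 minus Atp5a1 to 1.55; the other 5 pairs kept their direction under the alternatives run. The cause was not tested. No paired analysis was possible because all samples belong to 1 group. Posterior mean counts, the copies summed for the highest replicate and leaving out replicate 2 or 3 there were chosen after seeing the data, as were the annotated-length scale, the ranks of mt-Atp8 and the alternatives to the median CPM ratio of replicate 1 to replicate 3, which was 3.96 to 4.34.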
